A study of Mus musculus with 4 samples.

Results

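The genes of MHC class I presentation described here are the heavy chains H2-K1 and H2-D1, the light chain B2m, the peptide transporter subunits Tap1 and Tap2, the loading factor Tapbp, the immunoproteasome subunits Psmb8, Psmb9 and Psmb10, and the trimming peptidase Erap1. They were taken as the probe sets annotated to exactly 1 of these 10 symbols, which gave 26 of the 22690 probe sets on the array. A further 12 probe sets carry several symbols that all begin with H2-K, H2-D, H2-L, H2-Q or H2-T. Of these, 10 belong to class I genes and are reported as shared signal, and 2 are annotated to H2-DMb1 and H2-DMb2, which match the rule by their letters but encode class II chains and are kept apart.

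MHC class I molecules carry short peptides from the inside of a cell to its surface, where cytotoxic T cells and natural killer (NK) cells read them. Proteasomes cut the proteins, the TAP transporter moves the peptides into the endoplasmic reticulum, tapasin holds the empty heavy chain and beta-2 microglobulin beside the transporter until a peptide fits, and ERAP1 trims the peptide ends. Nearly all nucleated cells express the pathway, and interferons, above all interferon gamma, raise most of its genes together.

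RNA came from 4 tumors that grew under the skin of nude (NCR Nu/Nu) mice after injection of iBMK cells, a line of immortalized mouse kidney epithelial cells. All 4 tumors carried the deletion of Atg5, which blocks autophagy, and the survival gene Bcl-2. In 2 tumors the cells expressed EGFP, and in the other 2 a fusion of the autophagy adaptor p62 to EGFP. Each tumor was measured on 1 Affymetrix Mouse Genome 430A 2.0 array as MAS5 signal intensity, a linear brightness that the authors had already scaled between arrays. The labels do not give the promoter of either transgene, whether a line was 1 clone, the age of the mice, or whether tumors with one label grew in different mice or from different cultures, so p-values measure only the spread between these tumors. Nude mice lack a working thymus but keep NK cells, macrophages and B cells. The arrays read the tumor with all its host cells, so fewer cells of a type and less RNA per cell cannot be told apart.

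The 4 arrays had median signals of 57.7 to 60.9. Sqstm1, which encodes p62, read 976 and 1156 in EGFP tumors 1 and 2 against 1433 and 1688 in p62-EGFP tumors 1 and 2, a difference that did not pass the test (limma adjusted p = 0.235). The 3 Atg5 probe sets read 40.2 to 119 over the 4 tumors, and where their probes lie relative to the deletion is not known here. The epithelial genes Krt18, Krt8, Epcam and Cdh1 were measured in every tumor, from 80.5 for Krt8 to 730 for Krt18, whereas the kidney genes Cdh16 and Pax8 read at most 11.2. EGFP tumor 2 stood apart from the other 3 by its leukocyte transcripts: 12 leukocyte and macrophage genes summed to 9215 there, against 875 in EGFP tumor 1 and 1541 and 1726 in p62-EGFP tumors 1 and 2. Differences from EGFP tumor 1 alone are therefore given for the 10 genes, and as medians for the other groups of genes.

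The promoters of the genes that form the surface molecule are shown first, because their upstream sequence is where the known response of class I genes to interferon and NF-kB is located. The RefSeq promoter table for GRCm38.p6 held 9 of the 10 genes, all but Tap2. Its windows run from 250 bases before to 50 bases after a start site, and the 250 upstream bases are printed 5′ to 3′ on the gene's own strand. H2-K1 (chr17:34000348-34000597, minus strand), H2-D1 (chr17:35262844-35263093, plus strand) and B2m (chr2:122147437-122147686, plus strand) are printed with capitals for matches to the kappaB motif of NF-kB and to the IRF motif AANNGAAA, each searched on both strands.
H2-K1: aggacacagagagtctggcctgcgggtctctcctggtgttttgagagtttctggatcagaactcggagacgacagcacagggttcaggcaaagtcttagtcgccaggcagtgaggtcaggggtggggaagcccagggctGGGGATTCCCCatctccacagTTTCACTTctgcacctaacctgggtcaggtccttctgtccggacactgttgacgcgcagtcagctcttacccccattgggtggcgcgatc
H2-D1: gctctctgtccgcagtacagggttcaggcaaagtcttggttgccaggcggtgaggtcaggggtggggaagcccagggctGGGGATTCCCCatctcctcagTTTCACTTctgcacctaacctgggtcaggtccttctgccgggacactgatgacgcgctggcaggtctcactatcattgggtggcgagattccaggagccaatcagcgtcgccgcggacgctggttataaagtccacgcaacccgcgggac
B2m: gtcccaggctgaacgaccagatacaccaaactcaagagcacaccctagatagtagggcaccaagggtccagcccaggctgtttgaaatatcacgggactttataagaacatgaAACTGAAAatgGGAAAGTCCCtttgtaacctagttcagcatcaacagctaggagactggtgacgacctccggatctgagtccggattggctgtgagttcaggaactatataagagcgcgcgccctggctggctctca

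The 250 upstream bases of H2-K1 and H2-D1 align over 190 bases, of which 170 (89.5%) are identical, and both hold the same pair of overlapping kappaB matches followed by the same IRF match. B2m holds both motifs in the opposite order, with the IRF match 137 bases and the kappaB match 126 bases before the start. Over the 300-base windows, a kappaB match was present in 3 of the 9 genes, H2-K1, H2-D1 and B2m, and in 8.18% of 27025 promoters of the table. An IRF match was present in 4 of the 9, the same 3 and Erap1, where it spans the start site, and in 24.2% of all promoters. The interferon gamma motif TTCNNNGAA was found in Psmb8 alone among the 9 and in 8.47% of all promoters. The motifs were chosen after the sequences had been read, and a match is a description of the letters, not a measured binding site.

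Tap1 and Psmb9 lie head to head on chromosome 17 and share 1 short promoter, so the sequence upstream of one gene is the sequence upstream of the other on the opposite strand. The 225 bases between their start sites are chr17:34187331-34187555, printed on the plus strand, which is the strand of Tap1. Capitals mark a CCAAT box and a GC box (GGGCGG on the other strand).
Tap1 and Psmb9: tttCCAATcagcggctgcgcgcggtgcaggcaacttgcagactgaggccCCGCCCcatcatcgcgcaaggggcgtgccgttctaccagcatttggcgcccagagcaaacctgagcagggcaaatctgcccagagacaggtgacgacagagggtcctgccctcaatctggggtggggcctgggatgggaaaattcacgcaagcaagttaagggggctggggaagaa
The CCAAT box occurred in 6 of the 9 genes and in 37.9% of all promoters, and the GC box in 4 of the 9 and in 35.9%. Tap1 and Psmb9 share both of these sites, so each site is counted for both genes.

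For all 10 genes, both p62-EGFP tumors read below both EGFP tumors. Of the 26 probe sets, 19 were bright enough to test, with a mean log2(signal + 16) at or above the 40th percentile. The remaining 7 read at most 31.2 in any tumor: 4 of H2-D1 and 3 of Tap1. No overlap between groups, with p62-EGFP lower, was found for 19 of the 19 tested, where the same held for 22.2% of all 13576 tested probe sets. None of the 19 passed the test across all probe sets (limma, Benjamini-Hochberg adjusted p from 0.0842 to 0.404), where 0.0884% of all tested probe sets passed in either direction. At an unadjusted p under 0.05, 17 of the 19 were lower, where 5.77% of all tested probe sets were. The log2 differences ran from -2.02 to -0.31 with a median of -0.99, beside 0.02 over all tested probe sets. A difference of -1 or below, which is 2-fold or more on this scale, was seen for 9 of the 19 and for 1.95% of all tested probe sets.

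**Figure D1:**
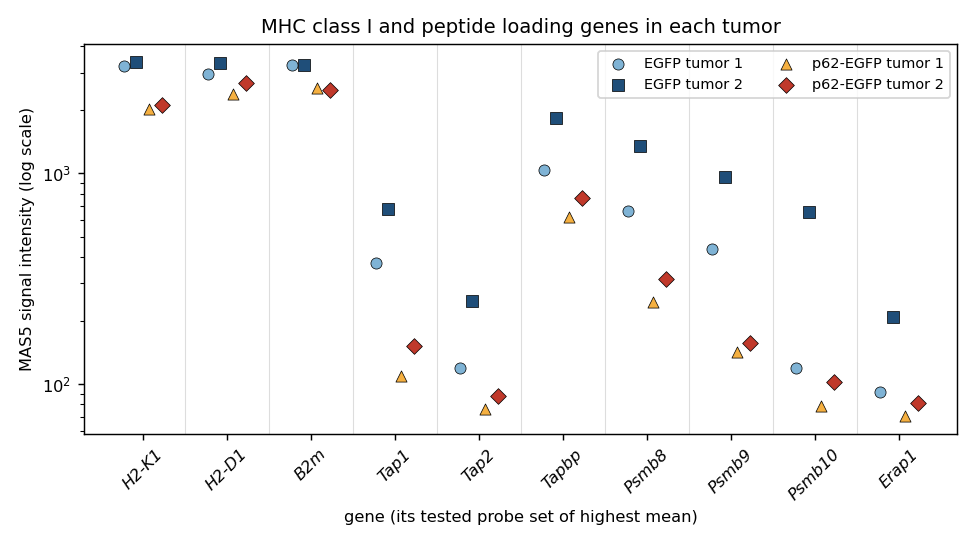
MAS5 signal intensity (log axis) of the 10 genes in each of the 4 tumors, 1 marker a tumor, each gene by its brightest tested probe set. The p62-EGFP markers lie below both EGFP markers for all 10 genes; EGFP tumor 2 lies above EGFP tumor 1 for all 10, by a log2 difference of 0.00 for B2m and 2.30 for Psmb10.

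H2-K1 encodes a classical heavy chain, the part of the molecule that binds the peptide. Its brightest probe set had signals of 3219 and 3381 in EGFP tumors 1 and 2 against 2012 and 2103 in p62-EGFP tumors 1 and 2. The EGFP tumors were close to each other, and both p62-EGFP tumors lay well below them (log2 difference -0.68, SE 0.08, limma adjusted p = 0.125). The 3 other H2-K1 probe sets had log2 differences of -0.56, -1.37 and -1.33. The probe set at -1.37 read 2118 and 2722 against 881 and 961, and the dim one at -1.33 read 122.5 and 174 against 50.0 and 47.4. All 4 probe sets therefore had the same order of groups, with differences that varied more between probe sets than their SE of 0.08 to 0.22.

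H2-D1, the other classical heavy chain on the array, was measured by 9 probe sets, of which 5 were tested. The brightest read 2945 and 3339 in the EGFP tumors against 2384 and 2683 in the p62-EGFP tumors, with the smallest difference of the 19 tested member probe sets (log2 -0.31, SE 0.10, limma adjusted p = 0.296). Another H2-D1 probe set had the smallest p of all members: it read 1626 and 1732 against 553 and 668 (log2 -1.44, SE 0.14, limma adjusted p = 0.0842). Here the p62-EGFP tumors stood at 36.4% of the EGFP mean. The other 3 tested H2-D1 probe sets had differences of -0.51, -0.91 and -1.30. Of the 13 probe sets of H2-K1 and H2-D1, 11 are of the array maker's type that can bind similar transcripts, so these values can hold signal of related heavy chains.

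B2m, the light chain shared by all class I molecules, had the steadiest values. It read 3266 and 3267 in the EGFP tumors against 2534 and 2470 in the p62-EGFP tumors (log2 -0.38, SE 0.07, limma adjusted p = 0.188). Its second probe set read 2965 and 3086 against 2450.4 and 2328 (log2 -0.34). The gap between groups was far larger than the gap within either group, although the difference was small and did not pass.

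The 6 member probe sets in the brightest 1% of the array, which belong to H2-K1, H2-D1 and B2m, had log2 differences of -0.68 to -0.31. The other 13 tested member probe sets, of 9 genes, had differences of -2.02 to -0.76. Over all 227 tested probe sets in the brightest 1%, differences ran from -0.80 to 0.87 with a median of 0.19. The part that brightness played in the smaller differences was not tested.

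**Figure D2:**
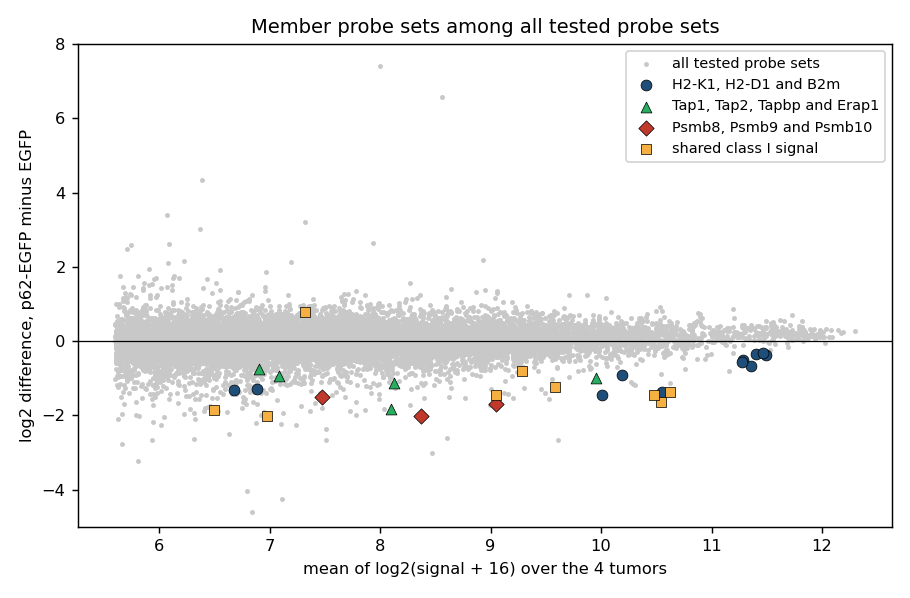
Log2 difference of p62-EGFP minus EGFP tumors (y axis) against the mean log2(signal + 16) over the 4 tumors (x axis) for 13576 tested probe sets (grey), with the tested class I probe sets coloured by role. The 19 member probe sets all lie below 0, from -2.02 to -0.31, and the bright probe sets of H2-K1, H2-D1 and B2m at the right lie closest to 0.

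The transporter subunit Tap1 read 375 and 675 in EGFP tumors 1 and 2 against 110 and 151 in the p62-EGFP tumors. Both EGFP tumors were more than 2-fold above either p62-EGFP tumor, with a log2 difference of -1.84 (SE 0.32, limma adjusted p = 0.184). Its partner Tap2 read 119 and 247 against 76.2 and 87.9 (log2 -0.95, SE 0.34, limma adjusted p = 0.312). Here EGFP tumor 1 lay nearer to the p62-EGFP tumors than to EGFP tumor 2.

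Tapbp encodes tapasin, the bridge between the transporter and the empty heavy chain. It read 1040.5 and 1832 in the EGFP tumors against 622 and 761 in the p62-EGFP tumors (log2 -0.99, SE 0.28, limma adjusted p = 0.255). Its second probe set gave a log2 difference of -1.12. Erap1, which trims peptides to the length that class I molecules hold, read 91.4 and 209 against 70.5 and 81.6 (log2 -0.76, SE 0.37, limma adjusted p = 0.404). Its values in EGFP tumor 1 and p62-EGFP tumor 2 were close, and the high value was that of EGFP tumor 2.

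The 3 immunoproteasome subunits replace the catalytic subunits of the standard proteasome and change which peptides it makes. Psmb9 had the largest difference of all members: 439 and 957 in the EGFP tumors against 141 and 156 in the p62-EGFP tumors (log2 -2.02, SE 0.37, limma adjusted p = 0.188). Psmb8 read 660 and 1342 against 244 and 316 (log2 -1.70, SE 0.35, limma adjusted p = 0.205). Psmb10 read 119 and 651 against 78.7 and 102 (log2 -1.51, SE 0.73, limma adjusted p = 0.403). For Psmb9 and Psmb8 both EGFP tumors stood clear of the p62-EGFP tumors, whereas for Psmb10 only EGFP tumor 2 did.

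None of the subunits that they replace read below both EGFP tumors in both p62-EGFP tumors. Psmb6, the counterpart of Psmb9, read 976.5 and 932 in the EGFP tumors against 1269 and 1330 in the p62-EGFP tumors, so its groups were ordered the other way (log2 0.44, SE 0.11, limma adjusted p = 0.221). Psmb5, the counterpart of Psmb8, read 508 and 476 against 494.5 and 472 (log2 -0.02). Psmb7, the counterpart of Psmb10, read 1531 and 1254 against 1452 and 1387 (log2 0.03). The median of these standard subunits was 0.03, and -0.07 against EGFP tumor 1. The ratio of Psmb9 to Psmb6 was lower in p62-EGFP tumors by a log2 difference of -2.46, that of Psmb8 to Psmb5 by -1.68 and that of Psmb10 to Psmb7 by -1.54. Against EGFP tumor 1 alone the Psmb9 to Psmb6 ratio differed by -1.91 and -1.84 in p62-EGFP tumors 1 and 2, the Psmb8 to Psmb5 ratio by -1.34 and -0.92, and the Psmb10 to Psmb7 ratio by -0.44 and -0.05. With 2 tumors a group an exact permutation test of such a ratio cannot go below p = 0.333, so none was run.

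**Figure D3:**
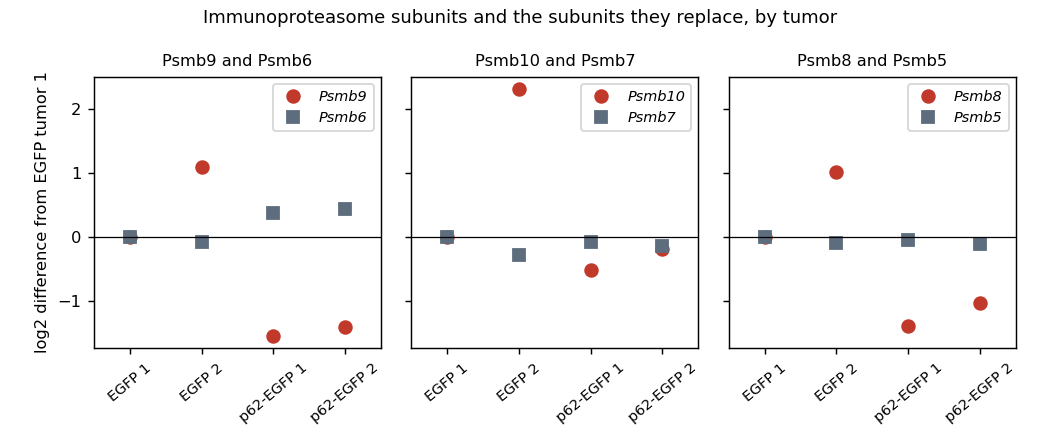
Log2 difference of each tumor from EGFP tumor 1 (y axis, EGFP tumor 1 at 0) for the immunoproteasome subunits Psmb9, Psmb10 and Psmb8 (circles) and the standard subunits they replace, Psmb6, Psmb7 and Psmb5 (squares). Psmb9 stands at -1.53 and -1.40 in the p62-EGFP tumors while Psmb6 stands at 0.37 and 0.44; Psmb10 differs mainly in EGFP tumor 2, at 2.30.

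The shared-signal probe sets hold the only class I call. The probe set annotated to both H2-K1 and H2-D1 read 2416 and 2810 in the EGFP tumors against 879 and 783 in the p62-EGFP tumors. It fell by 1.63 on the log2 scale (SE 0.12, limma adjusted p = 0.0387), to 31.8% of the EGFP mean, and was 1 of 4 probe sets called lower on the whole array (0.0295%). The call was lost without p62-EGFP tumor 1 or tumor 2 (log2 -1.71 and -1.55), as was every other call on the array. Only the EGFP tumors give a spread in those fits. It was also lost with median centring of the arrays, no filter on low values, or no intensity trend in the variance model (limma adjusted p = 0.0534, 0.159 and 0.134).

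The H2-Q genes encode Qa antigens, class I molecules outside the classical set. Their probe sets had nearly equal differences. The one annotated to H2-Q6 and H2-Q8 read 2051 and 2673 against 773 and 925 (log2 -1.45, limma adjusted p = 0.125). The one annotated to H2-Q7 and H2-Q9 read 2280.4 and 2808 against 883.5 and 1044 (log2 -1.38, limma adjusted p = 0.107). The third, which adds H2-Q4 to H2-Q6 and H2-Q8, read 754 and 974 against 260 and 362 (log2 -1.44, limma adjusted p = 0.175). In all 3 the p62-EGFP tumors stood at 35.9% to 37.9% of the EGFP mean. For the H2-K1 probe sets, from brightest to dimmest, this value was 62.3%, 67.9%, 38.1% and 32.9%. The probe set annotated to H2-Q5 and H2-K1 differed from the 3 H2-Q probe sets. It read 56.7 and 871 against 43.3 and 49.8, high in EGFP tumor 2 only (log2 -2.02, SE 1.12, limma adjusted p = 0.449).

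Of the H2-T probe sets, those annotated together to H2-T9, H2-T10 and H2-T22 read 864 and 1566 against 471 and 494.5 (log2 -1.24, limma adjusted p = 0.219), and 119 and 202 against 27.6 and 35.9 (log2 -1.85, limma adjusted p = 0.175). H2-T10 and H2-T22 are ligands of some gamma delta T cells. The probe sets of H2-T23 and a neighbouring pseudogene disagreed. One read 512 and 1279 against 345 and 601 (log2 -0.81), with p62-EGFP tumor 2 above EGFP tumor 1. The other read 196 and 53.7 against 176 and 213 (log2 0.79), low in EGFP tumor 2 only. H2-T23 encodes Qa-1, the ligand of the NK cell receptor CD94/NKG2A, and no direction can be given for it. In all, 7 of the 9 tested shared class I probe sets were below both EGFP tumors, where 22.2% of all tested probe sets were, and their median difference was -1.44 against both EGFP tumors and -1.23 against EGFP tumor 1. The tenth, of H2-T3 and H2-T18, read at most 6.6. The 2 class II probe sets of H2-DMb1 and H2-DMb2, whose product helps load class II molecules, read 55.3 and 119 against 38.2 and 30.7, and 90.5 and 369 against 60.5 and 61.9, with limma adjusted p = 0.311 and 0.357.

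EGFP tumor 2 was the highest tumor for all 10 genes, and the genes differed in how far they depended on it. EGFP tumor 2 was above EGFP tumor 1 for 19 of the 19 tested member probe sets, and for 39.3% of all tested probe sets. Among the 335 other tested genes of chromosome 17 described below, the share was 14.0%. Their median log2 gap, EGFP tumor 2 minus EGFP tumor 1, was -0.34. The log2 gap between the EGFP tumors was 0.00 for B2m, 0.07 for H2-K1 and 0.18 for H2-D1. It was 0.81 for Tapbp, 0.82 for Tap1, 0.96 for Tap2, 1.01 for Psmb8, 1.06 for Erap1, 1.10 for Psmb9 and 2.30 for Psmb10. These gaps are those of each gene's brightest probe set. The other tested probe sets of the chains had gaps of 0.06 for B2m, 0.14 to 0.46 for H2-K1 and 0.09 to 0.67 for H2-D1.

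Set against EGFP tumor 1 alone, both p62-EGFP tumors were still lower for 19 of 19 tested member probe sets, where this held for 43.7% of all tested probe sets. On chromosome 17, where 7 of the 10 genes lie, it held for 253 of the 335 other tested genes described below. That share is higher than the share over the whole array. The log2 differences from EGFP tumor 1 were -1.53 and -1.40 for Psmb9 in p62-EGFP tumors 1 and 2, -1.64 and -1.23 for Tap1, and -1.38 and -1.02 for Psmb8. They were -0.67 and -0.61 for H2-K1, -0.73 and -0.44 for Tapbp, -0.55 and -0.38 for Tap2, and -0.36 and -0.40 for B2m. They were -0.51 and -0.19 for Psmb10, -0.31 and -0.14 for Erap1, and -0.30 and -0.13 for H2-D1 by its brightest probe set. The mean difference was -1 or below for 3 of the 10 genes, Tap1, Psmb8 and Psmb9, and for 6 of the 19 probe sets, where 0.958% of all tested probe sets reached it. The median over the 10 genes was -0.97 against both EGFP tumors, -0.53 against EGFP tumor 1 and -1.41 against EGFP tumor 2.

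With EGFP tumor 2 left out of the fit, 14 of the 19 member probe sets passed, where 4.4% of all tested probe sets were called lower. With EGFP tumor 1 left out, 19 passed, where 9.59% were called lower. In these 2 fits only the p62-EGFP tumors give a spread, and the lone EGFP tumor is assumed to vary as they do. With either p62-EGFP tumor left out, no tested probe set passed, members included, so those fits do not set the members apart. The 10 genes then had a median log2 difference of -0.85 (p62-EGFP tumor 1 out) or -1.08 (tumor 2 out). In all 4 fits every one of the 19 probe sets was lower in the p62-EGFP tumors. This follows from the lack of overlap between the groups and adds nothing to it.

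**Figure D4:**
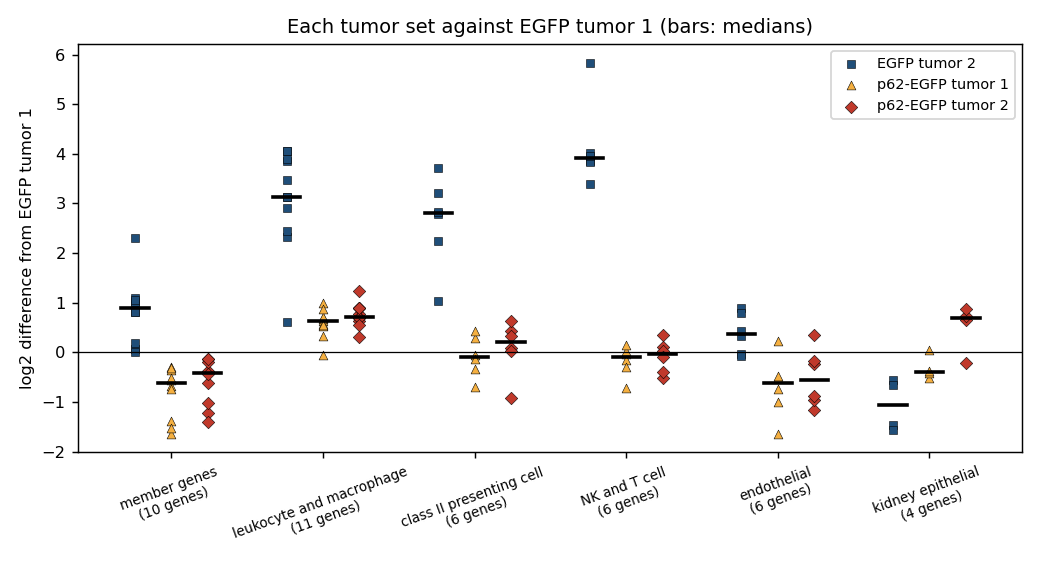
Log2 difference of EGFP tumor 2 and of both p62-EGFP tumors from EGFP tumor 1 (y axis, 0 is EGFP tumor 1) for the 10 class I genes and the tested genes of 5 marker lists, 1 marker a gene and bars at the medians. In the p62-EGFP tumors the class I medians are -0.61 and -0.42 while the leukocyte and macrophage medians are 0.64 and 0.72; EGFP tumor 2 has medians of 0.89 and 3.13 for the same lists.

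Host cells express MHC class I too, and their markers moved between the tumors. The leukocyte and macrophage list was highest in EGFP tumor 2 for 12 of 12 measured genes, among them the protease Ctss (209 and 1949 in the EGFP tumors against 432 and 511 in the p62-EGFP tumors), the growth factor receptor Csf1r (159 and 941 against 306 and 309), and the adaptor Tyrobp (113 and 1111 against 177 and 184). Its weakest member, Itgam, read 5.8 to 28.0. The 11 tested genes had a median log2 difference of 0.69 from EGFP tumor 1, so by the median these markers stood above EGFP tumor 1 in the p62-EGFP tumors while the class I genes stood below it. Against both EGFP tumors the median was -0.96. The part of leukocytes in the class I differences was not tested.

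The NK and T cell list summed to 171 and 4499 in EGFP tumors 1 and 2 against 132 and 153 in the p62-EGFP tumors, and 11 of 11 measured genes were highest in EGFP tumor 2. The 3 brightest tested genes were the chemokine Ccl5 (85.6 and 1056 against 45.9 and 61.4), the granzyme Gzmb (1.5 and 985 against 1.1 and 6.2) and the receptor Klrk1 (21.2 and 524 against 17.4 and 10.0). The T cell genes Cd3e and Cd8a read 88.9 and 148 in EGFP tumor 2 and at most 9.2 elsewhere. Interferon gamma, which NK and T cells make, followed: Ifng read 0.4 and 112 in the EGFP tumors against 0.2 and 3.1 in the p62-EGFP tumors and was too dim to be tested. Ifnb1 read 6.4 to 9.8 in all 4 tumors. The part of interferon gamma in the class I differences was not tested.

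Markers of class II presenting cells summed to 960 and 8709 in the EGFP tumors against 908.5 and 1168 in the p62-EGFP tumors, with H2-Aa at 234 and 3259 against 291 and 371, Cd74 at 290.1 and 2843 against 278 and 399, and H2-Ab1 at 238 and 1731 against 186 and 253. The endothelial list summed to 377 and 533 against 187 and 242, the mast cell list to 659 and 570 against 201 and 129, and the list of B and plasma cells to 366 and 354.5 against 78.8 and 69.8. The sums of these last 3 lists were below EGFP tumor 1 in both p62-EGFP tumors, as the class I genes were, and their part in the class I differences was not tested. By the median of tested genes, the log2 difference from EGFP tumor 1 was -0.61 for endothelial and -1.60 for mast cell genes. It was -0.53 for the 10 class I genes, -0.04 for the NK and T cell list and 0.06 for the class II list. The B and plasma cell sum rested on the immunoglobulin chain Ighm (335 and 236 against 51.5 and 44.4), the only one of 5 bright enough to test, while Ms4a1, a surface protein of B cells, read at most 18.3. Of the tested genes, 4 of 5 mast cell genes and 5 of 6 endothelial genes were below both EGFP tumors, where 22.2% of all tested probe sets were. Ms4a2 of mast cells and Tie1 of endothelium read at most 6.5 and 17.8. The fibroblast list summed to 950 and 3226 against 2015 and 2773, the muscle list to 30.3 and 451 against 3401 and 40.5, and the kidney epithelial list to 1357 and 537 against 1108 and 1756. Their medians from EGFP tumor 1 were 1.07, 2.48 and 0.13.

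Other genes of the pathway were taken from lists of loading chaperones, standard proteasome subunits, proteasome activator and assembly factors, peptidases, class I-like chains and regulators. None of their 44 tested genes passed the test (limma), and 13 had an unadjusted limma p under 0.05 in either direction, where 14.5% of all tested probe sets did. The general chaperones of the endoplasmic reticulum that help fold class I chains did not share the class I pattern. Canx (calnexin) read 894 and 984 in the EGFP tumors against 1285 and 1335 in the p62-EGFP tumors (log2 0.48, SE 0.11, limma adjusted p = 0.221), and Calr (calreticulin) read 1057 and 1583 against 1019 and 1083 (log2 -0.30). Pdia3, the disulfide isomerase of the loading complex, read 731 and 812 against 734.5 and 589 (log2 -0.22). Tapbpl, a peptide editor related to tapasin, was the 1 of the 4 below both EGFP tumors, where 22.2% of all tested probe sets were. It read 60.2 and 197 against 47.7 and 48.2 (log2 -0.99, limma adjusted p = 0.404). The median of the 4 was -0.26, and -0.08 against EGFP tumor 1.

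The proteasome activator Psme1, a subunit of PA28, read 534 and 884 against 515 and 500.2 (log2 -0.43, limma adjusted p = 0.473). Psme3, the nuclear activator, read 103 and 112 against 158 and 179 (log2 0.57, limma adjusted p = 0.259), and the assembly factor Pomp read 793.5 and 1076 against 1293.5 and 951 (log2 0.26). The median of these 3 was 0.26, and 0.48 against EGFP tumor 1. Of the 7 tested peptidases 3 were above both EGFP tumors and none below, where 26.7% of all tested probe sets were above both. Their median was 0.13, and 0.21 against EGFP tumor 1. The 3 were Blmh (469 and 540.0 against 778 and 825, limma adjusted p = 0.209), Npepps (373 and 292 against 452 and 496, limma adjusted p = 0.312) and Tpp2 (147 and 185 against 216 and 243, limma adjusted p = 0.355), all of which cut peptides in the cytosol. The fourth by p, Lap3, read 394.5 and 448 against 474 and 444. All the peptidases other than Erap1 thus had differences between -0.01 and 0.65, and Erap1 had -0.76.

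Among class I-like chains, 2 of 5 tested genes were below both EGFP tumors, where 22.2% of all tested probe sets were. Their median was -0.60, and -0.20 against EGFP tumor 1. H2-M3, which presents formylated peptides, read 342.5 and 645 against 188.5 and 176 (log2 -1.30, SE 0.31, limma adjusted p = 0.221). Fcgrt, the neonatal Fc receptor chain, which also pairs with beta-2 microglobulin, read 276 and 162 against 102 and 105 (log2 -0.93, SE 0.27, limma adjusted p = 0.256). Hfe, the class I-like regulator of iron uptake, read 42.3 and 119 against 39.9 and 45.2 (log2 -0.60), and Cd1d1, which presents lipids, 79.0 and 93.9 against 88.8 and 69.0 (log2 -0.11). Fcgrt was highest in EGFP tumor 1, as was the fifth tested gene, Mr1, at 53.9 and 39.1 against 42.9 and 47.0.

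Of the 22 tested regulators 12 were below both EGFP tumors and none above, where 22.2% of all tested probe sets were below both and 26.7% above both. Their median was -0.44. The 4 of smallest p were Socs3, a brake on cytokine signalling (205 and 291 against 95.3 and 114, log2 -1.11, limma adjusted p = 0.199), Ifngr1, the ligand-binding chain of the interferon gamma receptor (174.5 and 164 against 75.3 and 96.0, log2 -0.87, SE 0.18, limma adjusted p = 0.205), Irf9, the DNA-binding subunit of ISGF3 (154 and 195 against 85.1 and 106.5, log2 -0.77, limma adjusted p = 0.235), and Jak1, a kinase of interferon receptors (479.5 and 701 against 351 and 385, log2 -0.64, limma adjusted p = 0.297). Ifngr1 was nearly level in the EGFP tumors and lower in both p62-EGFP tumors, without overlap. Chosen after its values were seen, Irf1, a factor that binds class I promoters, showed another pattern, at 206 and 1122.5 against 208 and 220.1: high in EGFP tumor 2 and level in the other 3 tumors. Without EGFP tumor 2 the median of the regulators was -0.21.

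**Figure D5:**
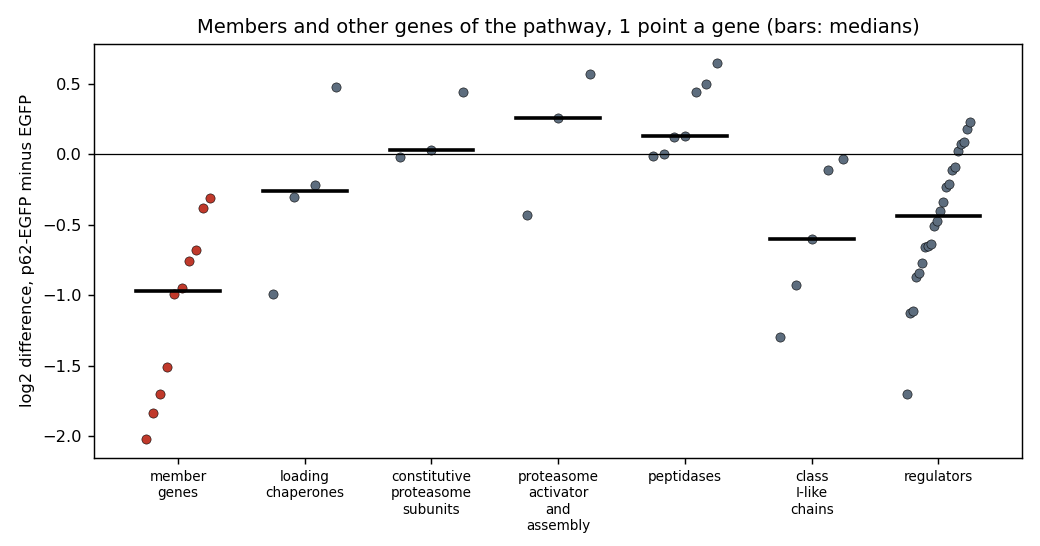
Log2 difference of p62-EGFP minus EGFP tumors (y axis) for the 10 class I genes and the tested genes of 6 lists of the pathway, 1 point a gene and bars at the medians. All 10 class I genes lie below 0 (median -0.97), the standard proteasome subunits and peptidases lie at or above -0.02 (medians 0.03 and 0.13), and the regulators spread from -1.70 to 0.23.

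Of the 10 genes, 7 lie on chromosome 17 within the major histocompatibility complex, in the order Tapbp, H2-K1, Psmb9, Tap1, Psmb8, Tap2 and H2-D1. B2m lies on chromosome 2, Psmb10 on chromosome 8 and Erap1 on chromosome 13. The 36 other tested genes between Tapbp and H2-D1, leaving out all H2 genes and all genes of the pathway and marker lists, had a median log2 difference of -0.16, with 11 below both EGFP tumors and 2 above, where 22.2% and 26.7% of all tested probe sets were. Against EGFP tumor 1 their median was -0.27, and 24 of the 36 were below it in both p62-EGFP tumors, where 43.7% of all tested probe sets were. The 335 other tested genes of chromosome 17 had a median of -0.10, and -0.25 against EGFP tumor 1. Of these 335, 99 were below both EGFP tumors and 30 above, and 253 were below EGFP tumor 1 in both p62-EGFP tumors. The stretch thus did not stand out from the rest of its chromosome by these counts. Only 1 of the 36 reached -1, Lst1, a leukocyte gene at 28.8 and 433 against 33.8 and 38.7. The 7 members on chromosome 17 had differences of -2.02 to -0.31 and the 3 others -1.51 to -0.38; against EGFP tumor 1 the 10 genes ran from -1.47 to -0.22. This stretch was chosen for description after the class I values had been seen.

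Centred on its own mean over the 4 tumors and averaged over the 10 genes, the log2 signal stood at 0.14 and 0.97 in EGFP tumors 1 and 2 and at -0.66 and -0.45 in the p62-EGFP tumors. Tapbp and Tap2 lay closest to this profile (Euclidean distances of 0.138 and 0.190 over the 4 tumors), and Psmb10, B2m and H2-D1 farthest (1.115, 0.952 and 0.927). Among 7691 ranked genes outside the members and the pathway lists, the 5 nearest were Tspan4 (distance 0.067), Papss2 (0.079), Ets1 (0.108), Tnfrsf21 (0.111) and Sgk1 (0.131). Tspan4 read 87.2 and 179 against 44.9 and 55.7, and Sgk1 247.5 and 410.2 against 123 and 138.5. With 4 tumors many genes can lie near any profile, so nearness is given as a description.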

How the data were processed

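Each of the 4 tumors was measured on 1 array. The deposited values are signal intensities for which MAS5 is named, per the submitters' processing notes; version and settings are not given in the sources used here. Trimmed mean intensities (2% at each end) were 150.04 on all arrays, so the authors' scaling was kept. The 64 controls were left out. Probe sets were named through the supplied array annotation, in which 20380 had 1 symbol, 691 several and 1555 none; 20351 of the first matched RefSeq (GRCm38.p6) by Entrez identifier, and 0 symbols changed.

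Signals were transformed as log2(signal + 16), which understates changes of dim probe sets. The 13576 probe sets with a mean at or above the 40th percentile (5.60) were compared with limma 3.58.1 (lmFit, eBayes with trend, R 4.3.3), two-sided, Benjamini-Hochberg over all of them, threshold 0.05. The submitters' gene selection method was not run here. The fit was tested on simulated data with the same noise in every tumor. Such data hold no outlying tumor like EGFP tumor 2, so the simulation does not cover that case. A gene in a list is its tested probe set of highest mean; lists are described by counts and medians, with no set test. Named genes are all members, the 4 of smallest p in each pathway list (all of a list of 4 or fewer), the 3 brightest tested genes of 3 marker lists, and the 5 nearest profiles. Others were chosen after their values were seen. The members and lists were chosen with earlier results of these data known. Sequences were read and figures drawn with Python 3.11.15. The labels give both groups the numbers 1 and 2; deviations of same-numbered tumors correlated at 0.0823 over probe sets, so the numbers were not taken as pairs. The 4 arrays limit the precision.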

Additional observations from a re-analysis of the deposited data

How the results depend on the processing

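All 19 tested member probe sets were lower in p62-EGFP tumors under every alternative that tested them, and 24 of all 26 with no filter. Because the groups of these 19 did not overlap, only another scaling of the arrays could have changed that direction. The median over the 10 genes was -0.83 to -1.03 under other scalings, pseudocounts, filters and probe set rules, and -1.41 to -0.53 when 1 tumor was left out. No member passed except with a replicate block, which called 5, and when an EGFP tumor was left out (0 to 19 over the 4 fits). Those 5 were 2 of H2-K1 and 1 each of H2-D1, Tap1 and Psmb8 (limma adjusted p = 0.0156 to 0.0496); the tumors share only a number, so this block is not part of the design. Over all probe sets 12 calls became 6 with no filter, 7 with a filter at the 60th percentile and 37 with the replicate block, and 0 to 2842 when 1 tumor was left out. Without EGFP tumor 2 the leukocyte and macrophage median turned to 0.69, the class II presenting cell median to 0.06 and the second H2-T23 probe set to -0.02; without EGFP tumor 1 they were -2.52, -2.68 and 1.59. The cause of these shifts was not tested. Signals near background limit 7 member probe sets, and 2 tumors a group limit every p-value.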
